A study of Mus musculus with 21 samples.

Results

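The 9 genes described here mark astroglia and myelin, and they were followed in cultures labelled as post-mitotic neurons made from mouse embryonic stem cells. The members are Aqp4, Aldh1l1, Slc1a2, Slc1a3, Gfap, Fabp7, Sox9, S100b and Mbp, chosen by name from the array's annotation, out of 18193 genes measured. They are read by 34 of the 45037 probe sets that are not controls, where a probe set is a group of short probes summarised into a single value. For each gene the probe set that varied most over the 21 arrays (by its SD) was used, whatever the groups, and all probe sets are given for Aldh1l1 and Mbp.

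There were 7 groups of 3 arrays, each array from what the labels call a biological replicate. The NesE-Lmx1a line, labelled as mesencephalic dopaminergic neurons, was grown with SHH and FGF8 and sampled at day 14 and at day 10 of differentiation. The NesE-Nkx2.2 line, labelled as serotonergic neurons, was sampled at day 10 after SHH with FGF8 (rostral hindbrain) or after SHH with retinoic acid, RA (caudal hindbrain). The NesE-Olig2 line, labelled as somatic motoneurons, was sampled at day 8 after SHH and RA. Wild-type cells, the controls, were sampled under FGF8 at day 10 and under RA at day 8. Their titles name SHH and their source names do not, and the labels place them in dorsal midbrain and dorsal hindbrain, so a difference between a factor line and its wild type may include SHH as well as the factor, and the parts cannot be told apart. The Nkx2.2 line under RA was sampled at day 10 and its wild type at day 8, so line and time cannot be told apart there either. NesE names a construct of the nestin enhancer, which is active in neural progenitors, and each factor is represented by 1 line, so a property of that line cannot be told apart from an effect of its factor. RNA was taken from purified post-mitotic neurons, per the labels.

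Astroglia arise from radial glia, the stem cells of the neural tube, after the main wave of neuron production. Notch signalling, BMP signalling and the gp130, JAK and STAT3 pathway promote this switch, together with the transcription factors Sox9 and the NFI family. Radial glia already carry Slc1a3 and Fabp7, whereas Gfap, S100b and the water channel Aqp4 belong to later astrocytes. Myelin is made by oligodendrocytes, whose progenitors come from the Olig2 and Nkx2.2 domains of the ventral neural tube.

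The promoter windows of members that were high in the same groups, and of Gfap and S100b as members that were flat, are shown because SOX, NFI and STAT proteins are among the regulators measured below. Each window holds the 250 bases before the annotated start, written along the gene's own strand, from RefSeq on GRCm38.p6. The Slc1a3 window lies at chr15:8710808-8711057 (minus strand), that of Aldh1l1 at chr6:90550543-90550792 (plus strand), that of S100b at chr10:76253586-76253835 (plus strand), that of Fabp7 at chr10:57784673-57784922 (plus strand) and that of Gfap at chr11:102897201-102897450 (minus strand). Capitals mark matches to any of 3 motifs searched on both strands: ACAAAG (SOX core), TTGGCA (NFI site core) and TTCNNNGAA (STAT).
Slc1a3: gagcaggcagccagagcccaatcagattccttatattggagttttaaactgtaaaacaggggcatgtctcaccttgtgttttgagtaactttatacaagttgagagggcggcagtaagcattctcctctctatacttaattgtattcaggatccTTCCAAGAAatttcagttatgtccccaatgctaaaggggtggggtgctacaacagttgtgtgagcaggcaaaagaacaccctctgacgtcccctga
Aldh1l1: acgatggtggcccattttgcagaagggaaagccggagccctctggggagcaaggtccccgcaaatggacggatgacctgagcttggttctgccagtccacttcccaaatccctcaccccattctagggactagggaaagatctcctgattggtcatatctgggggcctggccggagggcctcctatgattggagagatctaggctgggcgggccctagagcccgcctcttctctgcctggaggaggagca
Fabp7: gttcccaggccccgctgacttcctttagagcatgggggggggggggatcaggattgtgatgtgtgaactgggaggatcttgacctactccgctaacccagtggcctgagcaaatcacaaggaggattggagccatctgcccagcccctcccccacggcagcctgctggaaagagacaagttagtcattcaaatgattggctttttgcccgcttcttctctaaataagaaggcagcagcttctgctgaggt
Gfap: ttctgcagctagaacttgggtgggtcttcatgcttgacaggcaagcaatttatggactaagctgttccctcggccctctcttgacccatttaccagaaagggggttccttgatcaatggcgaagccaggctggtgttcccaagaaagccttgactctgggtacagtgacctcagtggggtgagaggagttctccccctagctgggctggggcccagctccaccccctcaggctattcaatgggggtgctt
S100b: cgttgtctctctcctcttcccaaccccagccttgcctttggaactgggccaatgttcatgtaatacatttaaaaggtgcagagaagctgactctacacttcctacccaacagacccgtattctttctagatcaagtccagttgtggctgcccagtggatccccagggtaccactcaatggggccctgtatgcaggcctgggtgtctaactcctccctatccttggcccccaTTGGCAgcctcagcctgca
The Slc1a3 window held 1 STAT match, which begins at position -96 counted from the start. The S100b window held 1 NFI match, at position -19, and the Aldh1l1, Fabp7 and Gfap windows held no match to the 3 motifs. Of 32851 such windows in the table, 7.0% held the STAT motif, 12.3% the NFI site core and 16.5% the SOX core. A match describes letters and is not evidence of binding. Of the members, 6 matched the table, Slc1a2 being the other, with no match to the motifs. Sox9, Aqp4 and Mbp are named without a sequence.

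All values are log2 signals that the authors centred for each probe set, so a value of 0 is the middle of the array values of that probe set, not absence, and values of different genes are not comparable as levels. Log2 fold changes are differences of group means, given ± SE from limma fitted over all 21 arrays. A gene was called at a Benjamini-Hochberg adjusted p under 0.05 over 18193 genes with a log2 fold change of at least 1 in either direction. In bulk RNA, fewer cells of a type and less RNA per cell cannot be told apart. The bioC hybridization control fell into 2 ranges, from -2.75 to -1.27 on 9 arrays and from -0.15 to 0.65 on 12, a split that no label names. The first set holds all arrays of Lmx1a day 10, 2 each of Lmx1a day 14, Olig2 and the FGF8 wild type, and none of the Nkx2.2 line or the RA wild type. In Lmx1a day 14, Olig2 and the FGF8 wild type, the array in the second set is replicate 3. The labelling controls of Lmx1a day 10 were also apart, at -3.83 to -3.68 against -1.80 to 2.03 on the other arrays. That group's labelling and its line and day cannot be told apart. A fit without 3 arrays (Lmx1a day 10 replicate 1, Nkx2.2 FGF8 replicate 1, wild-type FGF8 replicate 2), which were chosen after the data were seen, is given with the other alternative fits.

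An F test over the 7 groups called 7 of the 9 members, all but Gfap and S100b, where 41.3% of all genes were called. The F test's adjusted p was lowest for Aqp4 (6.76e-07), followed by Aldh1l1 (0.000101), Slc1a2 (0.000437), Mbp (0.000637), Sox9 (0.000705), Slc1a3 (0.00141) and Fabp7 (0.0149). The patterns were not alike. Aqp4 was high in both Nkx2.2 groups, Mbp in the Nkx2.2 group under RA, Slc1a3 in Lmx1a day 14 and the Nkx2.2 group under RA, and Slc1a2 in the wild types. Over the 21 arrays, which share groups of 3, Pearson's r between members ran from -0.60 for Aqp4 with Slc1a2 to 0.72 for Aqp4 with Aldh1l1, and r was also 0.72 for Fabp7 with Sox9.

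**Figure D1:**
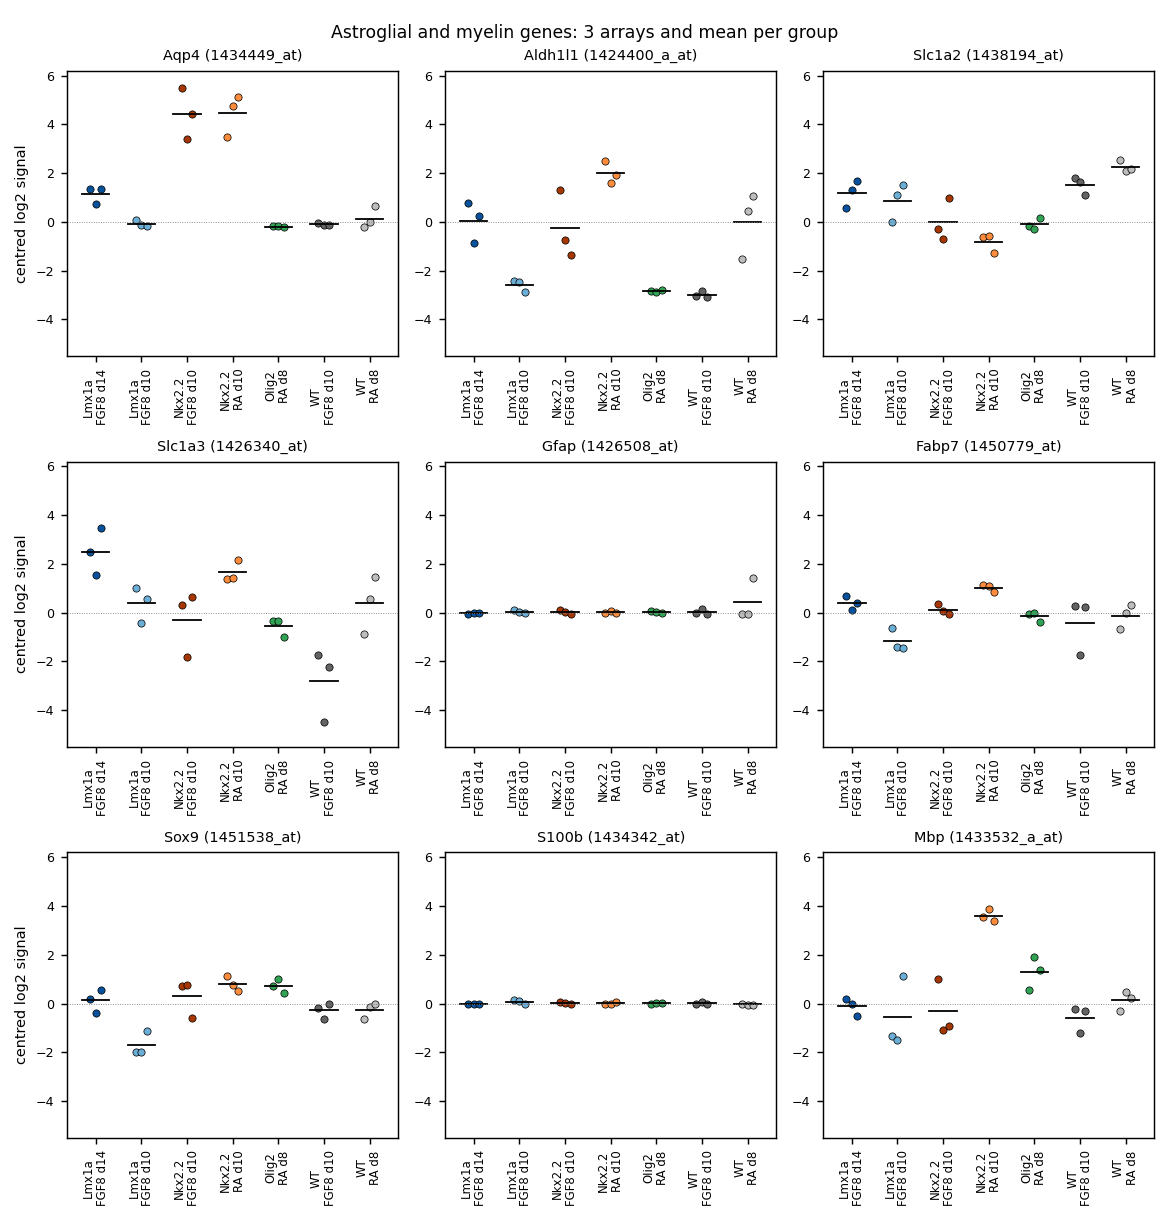
Centred log2 signal (vertical axis) of the probe set used for each of the 9 genes, with 1 panel per gene; points are the 3 arrays of each group and bars their mean. Aqp4 stands at 3.41 to 5.49 in the 6 Nkx2.2 arrays and at no more than 1.36 elsewhere, Mbp at 3.40 to 3.87 under RA in the Nkx2.2 line, while S100b stays within -0.04 and 0.13 on every array.

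Aqp4, the water channel of astrocyte endfeet and of ependyma, was the member with the largest rise in both Nkx2.2 groups. Its values were 5.49, 3.41 and 4.42 in the Nkx2.2 line under FGF8, whereas wild-type cells under FGF8 gave -0.04, -0.11 and -0.12. Under RA they were 3.46, 4.77 and 5.12 in the Nkx2.2 line, against -0.23, 0.00 and 0.63 in the wild type. The groups were far apart in both media. The log2 fold change was 4.53 ± 0.44 under FGF8 (adjusted p 1.79e-05) and 4.31 ± 0.44 under RA (adjusted p 6.42e-06), and the difference of the 2 effects was 0.22 ± 0.62 (interaction, adjusted p 0.963). Both calls held without any single array. Means in the Nkx2.2 line were 4.44 ± 1.04 under FGF8 and 4.45 ± 0.88 under RA (SD, n = 3), the top of the order, and the 2 overlapped.

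Aqp4 lay in the Olig2 line at -0.19, -0.18 and -0.21, and Nkx2.2 under RA was 4.64 ± 0.44 above it (adjusted p 2.89e-06). Lmx1a day 14 came next in the order after the Nkx2.2 groups. Its arrays read 1.35, 0.74 and 1.36, against 0.06, -0.11 and -0.19 at day 10. Those groups did not overlap, yet the difference of 1.23 ± 0.44 was not called (adjusted p 0.112), and it was called within the first bioC set, at 1.12 (adjusted p 0.0282). Lmx1a day 10 fell by 4.52 on the log2 scale relative to the Nkx2.2 line under FGF8 (SE 0.44, adjusted p 5.51e-05), 2 groups that share no bioC set. A second Aqp4 probe set, 1425382_a_at, rose by 2.79 ± 0.63 under FGF8 (where 1.7% of probe sets were called higher) and 2.97 ± 0.63 under RA in the Nkx2.2 line (adjusted p over all probe sets 0.02 and 0.00313), and stayed near 0 in Lmx1a day 14 (0.14, -0.02 and -0.01). The third, 1447745_at, was called under RA at 1.28 ± 0.43 (adjusted p 0.0454) and not under FGF8 (1.13 ± 0.43, adjusted p 0.186).

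The genes whose pattern over the 21 arrays was nearest to Aqp4 were Maob (Pearson's r 0.95), Tmem26 (0.941) and Cryba2 (0.934). Maob encodes a monoamine oxidase found in serotonergic neurons and in astrocytes. Its mean was 5.69 under FGF8 and 6.36 under RA in the Nkx2.2 line, and between -0.03 and 0.04 in the other 5 groups. Cryba2, a crystallin gene, averaged 5.27 and 4.83 in the 2 Nkx2.2 groups and 0.58 in Lmx1a day 14.

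The glutamate transporters of astroglia went separate ways. Slc1a3 (GLAST), the transporter already present in radial glia, was highest in Lmx1a day 14, at 2.48, 1.56 and 3.47, whereas wild-type cells under FGF8 gave -1.75, -4.47 and -2.24. The 2 groups did not overlap, and the rise was 5.32 ± 0.79 (adjusted p 0.000269), called without any single array and at 5.13 within the first bioC set (adjusted p 0.0255). At day 10 the Lmx1a line read 1.01, -0.41 and 0.56, and it was 3.21 ± 0.79 above the same wild type (adjusted p 0.0304). That call was lost without Lmx1a day 10 replicate 1 (2.90, adjusted p 0.0947) or 3 (3.12, 0.0668), and without wild-type replicate 2 (2.38, 0.0945) or 3 (3.50, 0.0511). It was also lost within the first bioC set (3.50, 0.106) and without the 3 arrays named above (2.07, 0.236). Day 14 over day 10 was 2.11 ± 0.79 and not called (adjusted p 0.125), although these 2 groups did not overlap.

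Slc1a3 stood in the Nkx2.2 line at 0.31, -1.81 and 0.63 under FGF8 and at 1.37, 1.43 and 2.18 under RA. The RA wild type read -0.86, 0.55 and 1.46, which overlaps the Nkx2.2 group. Neither Nkx2.2 group was called against its wild type, with 1.27 ± 0.79 under RA (adjusted p 0.299) and 2.53 ± 0.79 under FGF8 (adjusted p 0.0691). The probe sets disagree on this call: of the 6 for Slc1a3, 4 ran together (r 0.92 to 0.99), and 2 of those were called under RA, 1452031_at at 2.19 ± 0.67 (adjusted p 0.029) and 1443749_x_at at 2.00 ± 0.65 (adjusted p 0.0422), where 5.71% of all probe sets were called higher. The same 2 were also called for Lmx1a day 14 over day 10, at 2.52 ± 0.67 and 2.70 ± 0.65 (adjusted p 0.0473 and 0.0304), against 1.71% of probe sets. Between the wild types Slc1a3 was 3.20 lower on the log2 scale in FGF8 than in RA (log2 fold change -3.20 ± 0.79, adjusted p 0.016). Without FGF8 replicate 2, which held the lowest value, the difference was -2.38 (adjusted p 0.0558), and without RA replicates 2 or 3 it was -3.12 (0.0571) or -2.67 (0.0581). With the bioC set as a block it was -2.84 (0.0836), and 2 of the 3 FGF8 arrays lie in the first set and none of the RA arrays does. The nearest genes were Ephx1 (r 0.947), an epoxide hydrolase, Sntb1 (0.934), a syntrophin, and Emp1 (0.916).

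Slc1a2 (GLT-1), the main glutamate transporter of mature astrocytes, which some neurons also express, had a different pattern. Its r with Slc1a3 was -0.16 over the 21 arrays. It read -0.63, -0.57 and -1.27 in the Nkx2.2 line under RA, against 2.55, 2.08 and 2.17 in the RA wild type. The fall of 3.09 on the log2 scale (SE 0.43, adjusted p 8.3e-05) was called without any single array. The Olig2 line read -0.19, -0.28 and 0.17, which is 2.37 lower than the same wild type (log2 fold change -2.37 ± 0.43, adjusted p 0.00159), also called without any single array. Under FGF8 the Nkx2.2 line read -0.29, -0.72 and 0.98, against 1.79, 1.64 and 1.11 in the wild type, with a difference of -1.52 ± 0.43 (adjusted p 0.0462). That call was lost without Nkx2.2 replicate 1 (-1.38, adjusted p 0.181) or 2 (-1.17, 0.193) and without wild-type replicate 1 (-1.38, 0.165), 2 (-1.46, 0.0896) or 3 (-1.72, 0.0663). It was also lost with the bioC set as a block (-1.64, 0.0878) and without the 3 arrays (-1.32, 0.156). The Lmx1a groups, at 0.55, 1.31 and 1.66 on day 14 and 0.00, 1.12 and 1.50 on day 10, overlapped each other and the FGF8 wild type.

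These values rest on 1 of 6 probe sets for Slc1a2. Of the others, 1439940_at reached 1.08 on 1 array of the RA wild type and the remaining 4 moved little, and 1 of them is also assigned to another gene. The mean over the Slc1a2 probe sets assigned to no other gene kept the direction at under the fold required, with -0.75 in the Nkx2.2 line (adjusted p 5.01e-05) and -0.59 in the Olig2 line (adjusted p 0.000831) under RA and -0.27 (adjusted p 0.117) in the Nkx2.2 line under FGF8. The nearest genes were Ccdc177 (r 0.962), Tmem151b (0.955) and Phc1 (0.918), the last a subunit of a Polycomb repressor complex. None of these 3 is on the astroglial lists used here.

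Aldh1l1, a folate enzyme widely used as a pan-astrocytic marker, fell into 3 ranges that did not overlap. The Lmx1a line read 0.79, -0.88 and 0.23 at day 14 and -2.43, -2.46 and -2.87 at day 10. The Nkx2.2 line read 1.31, -0.74 and -1.37 under FGF8 and 2.49, 1.61 and 1.91 under RA, and the Olig2 line -2.85, -2.87 and -2.81. The wild type read -3.06, -2.82 and -3.08 under FGF8 and -1.53, 0.43 and 1.06 under RA. The 9 arrays of Lmx1a day 10, the Olig2 line and the FGF8 wild type were the lowest. The 3 low groups overlapped each other in order, as did Lmx1a day 14, the RA wild type and the Nkx2.2 line under FGF8, while the Nkx2.2 line under RA lay above all.

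Several of these gaps were called for Aldh1l1. The Nkx2.2 line under RA exceeded the Olig2 line by 4.85 ± 0.65 (adjusted p 7.32e-05), Lmx1a day 14 exceeded the FGF8 wild type by 3.03 ± 0.65 (adjusted p 0.00478), and the Olig2 line fell by 2.83 relative to the RA wild type (SE 0.65, adjusted p 0.00727). The FGF8 wild type was also below the RA wild type, by a log2 fold change of -2.97 ± 0.65 (adjusted p 0.00852). These 4 held without any single array. In a fit of only the groups compared, the fall in the Olig2 line and the difference between the wild types were lost. The others depended on single arrays. Nkx2.2 over wild type was 2.72 ± 0.65 under FGF8 (adjusted p 0.0195), and 1.93 without Nkx2.2 replicate 1 (0.107), 2.68 without wild-type replicate 1 (0.0687) and 2.67 without replicate 3 (0.0667). With the bioC set as a block it was 2.68 (0.0656), and without the 3 arrays 2.01 (0.119). Under RA it was 2.02 ± 0.65 (adjusted p 0.0302), and 1.77 without Nkx2.2 replicate 1 (0.108), 2.06 without replicate 3 (0.0565) and 1.26 without wild-type replicate 1 (0.173). All 6 of these arrays lie in the second bioC set, and the fit within that set alone gave 2.02 (0.166).

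Lmx1a day 14 over day 10 was 2.63 ± 0.65 for Aldh1l1 (adjusted p 0.0232). It was 2.26 without day 14 replicate 1 (adjusted p 0.108), 2.54 without day 14 replicate 3 (0.0612) and 2.70 without day 10 replicate 2 (0.051). The Nkx2.2 line under FGF8 was below itself under RA by a log2 fold change of -2.27 ± 0.65 (adjusted p 0.048), lost in 5 of 6 leave-one-out fits, namely without FGF8 replicate 2 (-2.04, 0.156) or 3 (-1.72, 0.177) or RA replicate 1 (-2.03, 0.153), 2 (-2.47, 0.0789) or 3 (-2.32, 0.0828). It was also lost with the bioC set as a block (-2.27, 0.06) and within the second set (-2.27, 0.234). Lmx1a day 10 was below the Nkx2.2 line under FGF8 by -2.32 ± 0.65 (adjusted p 0.0383), and this was lost without Lmx1a replicate 1 (-2.40, 0.0575), 2 (-2.38, 0.0804) or 3 (-2.17, 0.0884) and without Nkx2.2 replicate 1 (-1.53, 0.175) or 2 (-2.55, 0.0688), with the bioC set as a block (-2.26, 0.186) and without the 3 arrays (-1.61, 0.217).

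The second Aldh1l1 probe set, 1424401_at, was flat, between -0.04 and 0.11 on all 21 arrays, so each of these results rests on 1424400_a_at alone. The nearest genes to it were Sparcl1 (r 0.921), which encodes a secreted matrix protein of astrocytes, Plppr4 (0.89), a neuronal membrane protein, and Tmem17 (0.873). Sparcl1 averaged 1.28 in Lmx1a day 14, 1.39 under FGF8 and 4.04 under RA in the Nkx2.2 line and -2.49 in the FGF8 wild type.

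Fabp7 (BLBP), the lipid-binding protein of radial glia, and Sox9, a transcription factor of glial specification, both had their lowest mean in Lmx1a day 10. For Fabp7 that group overlapped the FGF8 wild type and was not called against it (-0.74 ± 0.42, adjusted p 0.421). Fabp7 read 0.69, 0.13 and 0.40 at day 14, against -0.62, -1.39 and -1.46 at day 10. The rise of 1.56 ± 0.42 (adjusted p 0.0367) was lost in 5 of 6 leave-one-out fits and with the bioC set taken into account, as a block (1.49, adjusted p 0.0659) or within the first set (1.57, 0.237). The leave-one-out losses were without day 10 replicate 2 (1.45, adjusted p 0.102) or 3 (1.41, 0.07) or day 14 replicate 1 (1.42, 0.133), 2 (1.70, 0.0642) or 3 (1.57, 0.0749). Its highest group was the Nkx2.2 line under RA, at 1.12, 1.09 and 0.83, against -0.68, 0.00 and 0.30 in the RA wild type. These did not overlap, and the difference of 1.14 ± 0.42 was not called (adjusted p 0.0568). Fabp7 read 0.35, 0.08 and -0.05 in the Nkx2.2 line under FGF8, -0.06, -0.02 and -0.38 in the Olig2 line and 0.27, -1.75 and 0.24 in the FGF8 wild type, and these overlapped. Its nearest genes were Ttyh1 (r 0.937), Ptprz1 (0.936), a receptor phosphatase of radial glia, and Mettl16 (0.897).

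Sox9 read 0.19, -0.38 and 0.57 in Lmx1a day 14, against -1.98, -1.97 and -1.13 at day 10. The groups did not overlap. The rise of 1.82 ± 0.36 (adjusted p 0.00662) was called without any single array. It was lost within the first bioC set (1.59, adjusted p 0.0558) and in a fit of only those groups. A second Sox9 probe set, 1424950_at, rose by 1.63 ± 0.31 in the same comparison (adjusted p 0.0086). The third, 1433889_at, did not follow the probe set used (r -0.06), with means of 0.17 at day 14 and 0.10 at day 10. Lmx1a day 10 was also below the Nkx2.2 line under FGF8 (0.71, 0.78 and -0.60), by a log2 fold change of -1.99 ± 0.36 (adjusted p 0.00398), and with the bioC set as a block by -1.77 (adjusted p 0.0598). This call was also lost with the mean of all Sox9 probe sets and in a fit of only those groups.

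Against the FGF8 wild type (-0.17, -0.64 and -0.01), Sox9 in Lmx1a day 10 fell by 1.42 on the log2 scale (SE 0.36, adjusted p 0.0353). The call was lost without Lmx1a replicate 1 (-1.28, adjusted p 0.109) or 2 (-1.28, 0.0974) and without wild-type replicate 1 (-1.37, 0.117) or 3 (-1.29, 0.118). It was also lost with the bioC set as a block (-1.35, 0.0647), within the first set (-1.29, 0.127) and without the 3 arrays (-1.46, 0.0916). The mean of all Sox9 probe sets and a fit of only those groups lost it too. All low Sox9 and Fabp7 values of Lmx1a day 10 come from the arrays with the low labelling controls, whose part in the result was not tested. Sox9 was 1.14, 0.76 and 0.53 in the Nkx2.2 line under RA and 0.70, 1.01 and 0.45 in the Olig2 line, against -0.64, -0.14 and 0.00 in the RA wild type. The Nkx2.2 difference was 1.07 ± 0.36 (adjusted p 0.0371), lost without Nkx2.2 replicate 1 (0.91, 0.137) or 2 (1.10, 0.0754) and without wild-type replicate 1 (0.88, 0.148) or 2 (1.13, 0.0661). Within the second bioC set, which holds all 6 arrays, the adjusted p was 0.107, and the mean of all Sox9 probe sets gave 0.61 (adjusted p 0.0351), under the fold required. The call was also lost with the replicate number as a block. The Olig2 difference was 0.98 ± 0.36 and not called (adjusted p 0.0777), whereas 1424950_at was called there when tested singly (1.05 ± 0.31, adjusted p 0.0403). The nearest genes to Sox9 were Zcchc10 (r 0.874), Zfp454 (0.859) and Map10 (0.853).

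Gfap, the intermediate filament of mature and reactive astrocytes, and S100b, a calcium-binding protein of mature astrocytes, showed no difference between groups. Gfap read -0.07, -0.07 and 1.42 in the RA wild type, and its 18 arrays in the other groups lay between -0.07 and 0.14. The array at 1.42, replicate 3, also gave the highest value for the Gfap probe set 1426509_s_at (0.55) and not for 1440142_s_at (-0.02). The F test gave Gfap an adjusted p of 0.697. S100b ranged from -0.04 to 0.13 (F test, adjusted p 0.501), and its SD over the arrays was at the 10.9th percentile of all genes. After centring, a flat probe set can be one that reads nothing or one that is steady, and the 2 cannot be told apart. The genes nearest to Gfap, Cwh43 (r 0.99), Rasip1 (0.986) and Dcdc2b (0.961), share the single high array. Those nearest to S100b, Fbxo15 (0.969), Kcnj2 (0.966) and Pm20d1 (0.964), stayed within 0.21 of 0 in every group mean.

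Mbp, myelin basic protein, was high in the Nkx2.2 line under RA. In that line it read 1.02, -1.09 and -0.90 under FGF8 and 3.54, 3.87 and 3.40 under RA, and in the RA wild type -0.29, 0.46 and 0.24. The Nkx2.2 group under RA was apart from both others. It was 3.47 ± 0.64 above its wild type (adjusted p 0.000776), and the Nkx2.2 line under FGF8 was below it by a log2 fold change of -3.93 ± 0.64 (adjusted p 0.00152). Both calls held without any single array. The second was lost in a fit of only the groups compared. The Nkx2.2 line under FGF8 differed from its own wild type (-0.23, -1.22 and -0.32) by 0.26 ± 0.64 (adjusted p 1). The difference between the 2 line effects was -3.20 ± 0.90 and missed the threshold (interaction, adjusted p 0.0518). Tested singly, 3 other Mbp probe sets were called in this interaction, all negative, where 0.848% of all probe sets were.

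The Olig2 line, also under RA, came next for Mbp in the order, at 0.55, 1.92 and 1.37. It did not overlap the RA wild type, yet the difference of 1.14 ± 0.64 was not called (adjusted p 0.284). The Nkx2.2 line under RA exceeded it by 2.32 ± 0.64 (adjusted p 0.0163), which was lost without Nkx2.2 replicate 2 (2.19, adjusted p 0.0573) and without Olig2 replicate 1 (1.95, 0.0816). It was also lost with the bioC set as a block (2.34, 0.0551), and 2 of the 3 Olig2 arrays lie in the first set and none of the Nkx2.2 arrays does. Lmx1a day 14 (0.19, 0.00 and -0.52) and day 10 (-1.33, -1.49 and 1.12) overlapped. The nearest genes were Caps2 (r 0.894), Rab32 (0.864), a small GTPase, and Ifi35 (0.855), an interferon-induced gene. Caps2 averaged 3.74 in the Nkx2.2 line under RA and 2.22 in the Olig2 line, and between -0.30 and 0.06 in the other 5 groups.

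The 8 probe sets of Mbp did not all move together. When each probe set was tested singly over 45037, 5 were called higher and 1 lower in the Nkx2.2 line under RA than in its wild type, where 5.71% of all probe sets were called higher and 5.89% lower. Beside the probe set used, the higher ones were 1456228_x_at (3.77 ± 0.38, adjusted p 8.22e-06), 1436201_x_at (2.55 ± 0.29, 2.79e-05), 1451961_a_at (1.71 ± 0.20, 3.2e-05) and 1454651_x_at (1.23 ± 0.26, 0.00325). On the arrays, 1436201_x_at read 2.96, 3.20 and 1.39 in that group and between -0.04 and 0.10 on the other 18. The probe set 1419646_a_at was 0.97 ± 0.12 higher (adjusted p 6.49e-05), just under the fold required. In contrast 1425264_s_at read -0.85, -0.90 and -1.10 in the Nkx2.2 line under RA, against 0.28, 0.12 and -0.04 in the wild type, a fall of 1.07 (SE 0.24, adjusted p 0.00457). Likewise 1425263_a_at was at -1.46, -0.38 and -0.44, against 1.66, 1.54 and 0.64, with a difference of -2.04 ± 0.82 that was not called (adjusted p 0.102).

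The Mbp locus also gives golli transcripts, which occur in neurons and other cells that make no myelin, and the files do not say which probe set reads which transcript. Against the RA wild type, 1 Mbp probe set was called in the Olig2 line, 1456228_x_at, which read 0.81, 1.45 and 0.59 in Olig2 and -0.51, -0.46 and -0.07 in the wild type (1.30 ± 0.38, adjusted p 0.0337). Of all probe sets, 3.43% were called higher there.

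**Figure D2:**
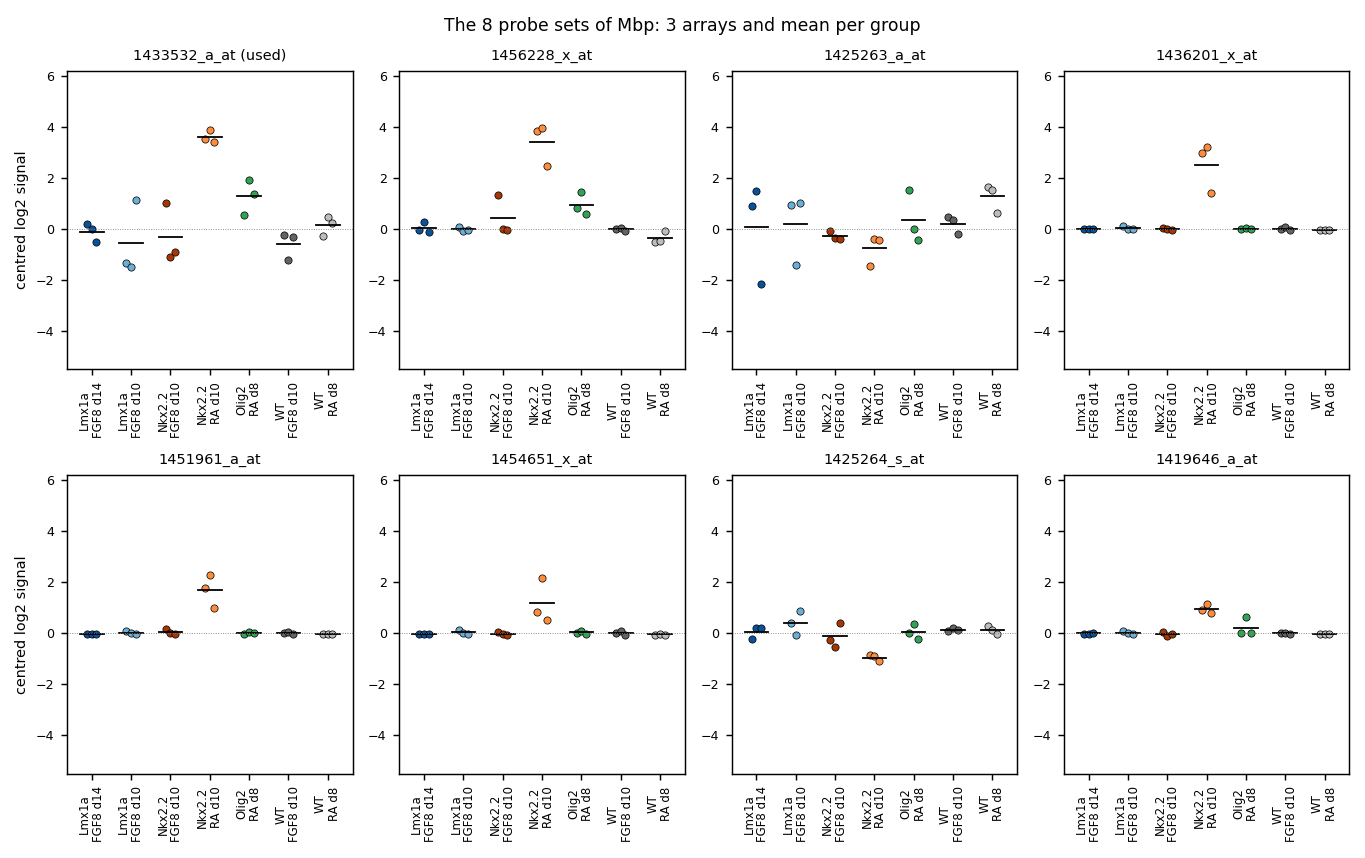
Centred log2 signal (vertical axis) of each of the 8 Mbp probe sets in the 7 groups; points are the 3 arrays of a group and bars their mean. In the Nkx2.2 line under RA, 6 probe sets stand above the other groups, led by 1433532_a_at at 3.40 to 3.87, while 1425264_s_at reads -1.10 to -0.85 there.

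Other myelin and oligodendrocyte genes were examined as a list of 16 that excludes Mbp. In the Nkx2.2 line under RA, 2 of the 16 were called, both higher, where 8.84% of all genes were called higher. Olig1, a factor of the oligodendrocyte and motoneuron lineages, averaged 2.74, against -0.03 in the RA wild type (2.77 ± 0.45, adjusted p 0.000268). Cnp, an enzyme of myelin that other cells also contain, averaged 1.09 in the Nkx2.2 line under RA and -1.13 in the wild type (2.22 ± 0.26, adjusted p 1.9e-05). Both held without any single array. The list's median log2 fold change was 0.01, and that of all genes 0.014. Bcas1, a gene of newly formed oligodendrocytes, averaged 0.91 in the Nkx2.2 line under RA and between -0.02 and 0.05 in the other groups. Its difference from the RA wild type (0.93 ± 0.10, adjusted p 9.5e-06) was under the fold required and not called. Sox10 (-0.13), Myrf (-0.05), Pdgfra (-0.46), Ugt8a (-1.02) and Cldn11 (-0.50) were below the RA wild type there, and none of them was called. The structural myelin genes Mog, Mag and Mobp, with Mal, Opalin, Cspg4, Gpr17 and Enpp6, stayed between -0.08 and 0.24 in every group mean.

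Of these 16, 3 were called in the Olig2 line against the RA wild type, all higher, where 5.5% of all genes were higher. They were Olig1 (2.33 ± 0.45, adjusted p 0.00231), Cnp (1.79 ± 0.26, 0.000247) and the tight-junction gene Cldn11 (1.16 ± 0.29, 0.0116). Cldn11 was lost without Olig2 replicate 2 (0.99, adjusted p 0.0634) and without wild-type replicate 1 (0.76, 0.0504). Cnp alone was called in the Nkx2.2 line under FGF8 against its wild type (1.71 ± 0.26, adjusted p 0.000902), where 2.83% of all genes were higher. This call was lost in a fit of only the groups compared. Cnp was also the only one called in Lmx1a day 14 against day 10 (1.73 ± 0.26, adjusted p 0.000975), where 2.96% were higher. Cnp was thus called higher in all 4 of these comparisons and Mbp in 1 of the 4.

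**Figure D3:**
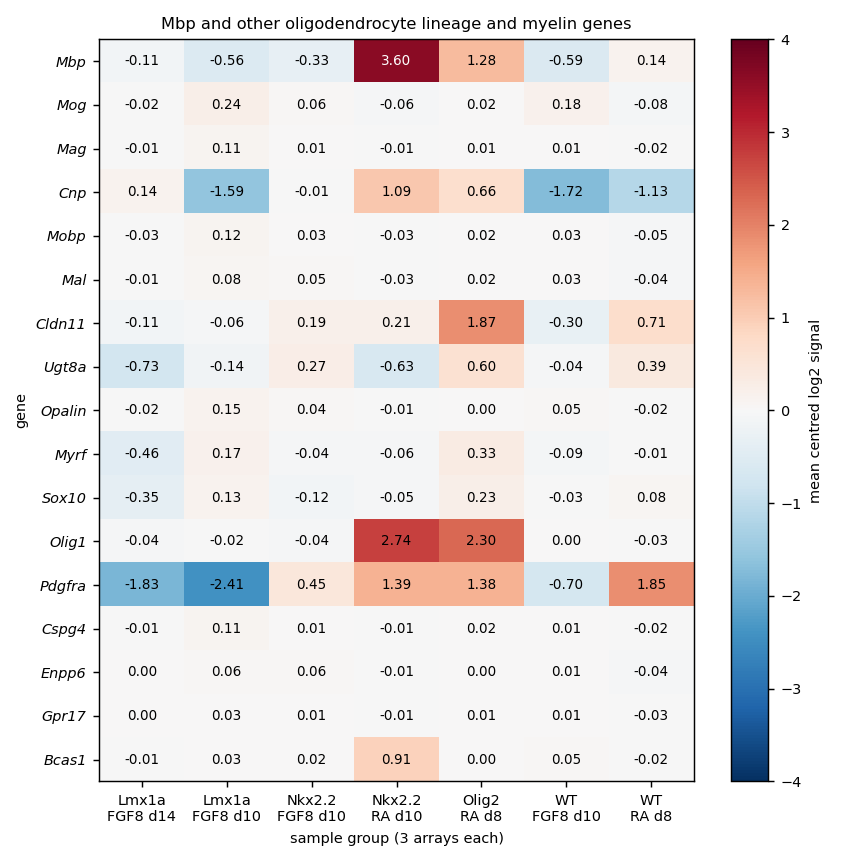
Mean centred log2 signal (colour and number) of Mbp and 16 oligodendrocyte lineage and myelin genes (rows) in the 7 groups (columns, 3 arrays each). In the Nkx2.2 line under RA, Mbp is at 3.60 and Olig1 at 2.74, while Mog, Mag and Mobp lie between -0.08 and 0.24 in all groups.

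The counts of members called are set here beside the share of all genes called in the same direction. Nkx2.2 under RA over wild type had 4 of 9 members higher (8.84% of genes) and 1 lower (9.16%). Under FGF8 the Nkx2.2 line had 2 members higher (2.83% of genes) and 1 lower (1.71%). Lmx1a day 14 over day 10 had 3 higher (2.96%) and none lower (1.28%), and Lmx1a day 14 over the FGF8 wild type 2 higher (6.37%) and none lower (3.46%). Lmx1a day 10 against the same wild type had 1 higher (1.96%) and 1 lower (1.36%). The Olig2 line had none higher (5.5%) and 2 lower (4.85%) than the RA wild type. Nkx2.2 under FGF8 over RA had none higher (1.65%) and 2 lower (2.66%), and Lmx1a day 10 over Nkx2.2 under FGF8 none higher (2.2%) and 3 lower (2.87%). Nkx2.2 under RA over Olig2 had 3 higher (6.19%) and none lower (6.94%), and the FGF8 over the RA wild type none higher (3.11%) and 2 lower (4.29%). The members' median log2 fold change was 1.14 in the Nkx2.2 line under RA (all genes 0.014), 1.23 in Lmx1a day 14 over day 10 (all genes -0.049), 0.54 in the Nkx2.2 line under FGF8 (all genes -0.007) and -0.33 in the Olig2 line (all genes 0.043). The interaction of line with medium called none of the 9 genes by limma, with Mbp and Slc1a2 at an unadjusted p under 0.05 (0.00291 and 0.0211) and 4.38% of genes called. Comparisons that share a wild type share its 3 arrays.

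**Figure D4:**
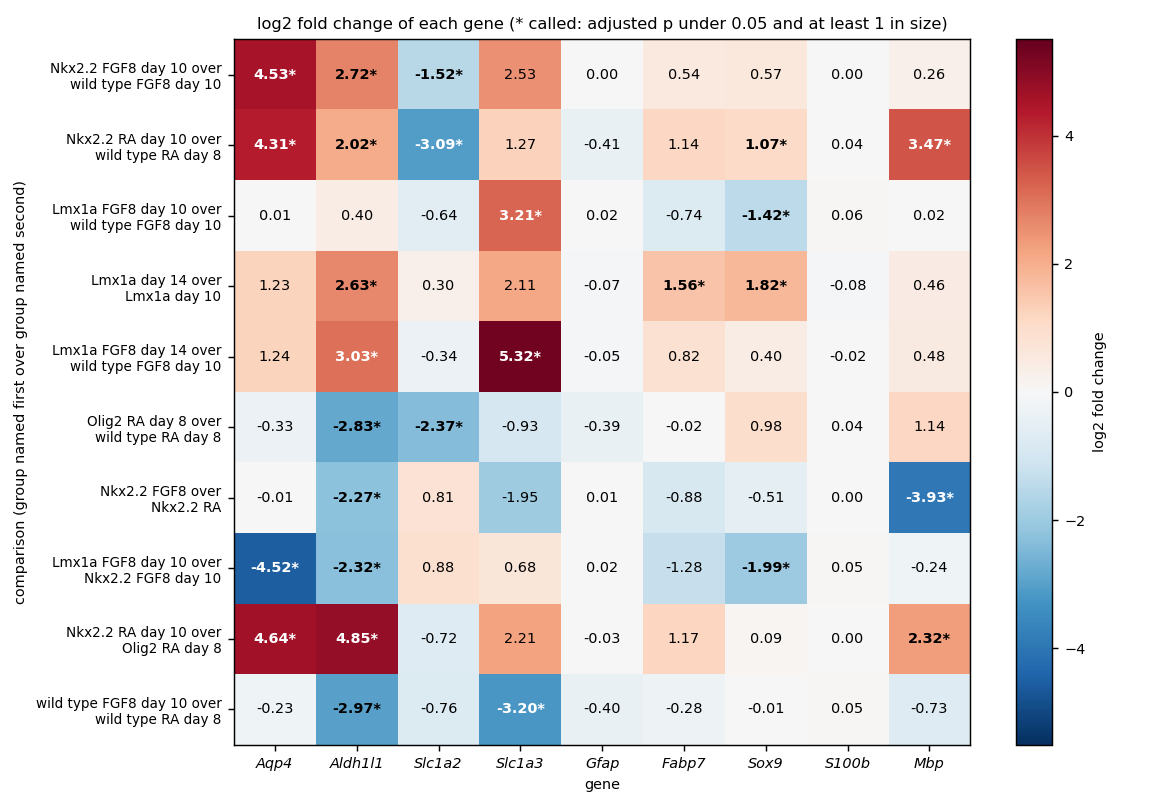
Log2 fold change of each gene (columns) in the 10 comparisons (rows, the group named first over the group named second), with colour from blue (lower) to red (higher) and a star for a call. Aqp4 is 4.53 and 4.31 in the Nkx2.2 rows, Slc1a3 5.32 in Lmx1a day 14 over wild type, and the Gfap and S100b columns hold no star.

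Genes that drive the switch to astroglia were followed as a list of 19 (receptors, JAK and STAT genes, BMP signalling and NFI factors). Of these, 6 were higher and 2 lower in the Nkx2.2 line under RA than in the RA wild type, where 8.84% of all genes were higher and 9.16% lower. The list's median was 1.02, against 0.014 over all genes. They include Rfx4, a factor of radial glia (2.99 ± 0.58, adjusted p 0.00107), Stat3 (2.33 ± 0.54, 0.00409) and Il6st, which encodes the shared receptor gp130 (2.26 ± 0.63, 0.013). Cntfr, the receptor subunit for the gliogenic cytokine CNTF, fell by 2.77 (SE 0.39, 9.38e-05). Il6st was lost without wild-type replicate 1 (1.52, adjusted p 0.0762). Stat3 was lost with the mean of all probe sets and with only probe sets whose names carry no suffix. In Lmx1a day 14 over day 10, 2 were higher (2.96% of all genes) and 1 lower (1.28%). Nfix rose by 4.34 ± 0.53 (adjusted p 0.000188) and Nfib by 1.61 ± 0.40 (0.023), while Cntfr fell by 1.77 (SE 0.39, 0.0127). Nfib was lost without day 10 replicate 2 (1.40, 0.0844) or day 14 replicate 1 (1.58, 0.0751), 2 (1.66, 0.0592) or 3 (1.60, 0.056). Nfix was lost with only probe sets whose names carry no suffix. Cntfr was lost within the first bioC set and in a fit of only the groups compared.

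The Nkx2.2 line under FGF8 had 3 of these 19 higher than the wild type, against 2.83% of all genes. They were Nfix (3.65 ± 0.53, adjusted p 0.000697), Nfib (2.21 ± 0.40, 0.00314) and Lifr, the LIF receptor (1.23 ± 0.24, 0.00514). Nfix was lost with only probe sets whose names carry no suffix, and Nfib and Lifr with the mean of all probe sets. Nfix and Nfib were also lost in a fit of only the groups compared. The Olig2 line had 4 higher than the RA wild type, all of the gp130 pathway, against 5.5% of all genes. They were Jak1 (4.34 ± 0.50, adjusted p 3.93e-05), Il6st (2.93 ± 0.63, 0.00469), Lifr (2.35 ± 0.24, 9.54e-06) and the feedback inhibitor Socs3 (2.32 ± 0.62, 0.0177). Socs3 was lost without Olig2 replicate 2 (2.26, adjusted p 0.06) or 3 (2.21, 0.053) and without wild-type replicate 1 (1.94, 0.088). Il6st was lost there in a fit of only the groups compared. No member was called higher in the Olig2 line over that wild type by the probe set used.

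Beyond the members, 19 further astroglial genes were tested. Of these, 3 were higher and none lower in the Nkx2.2 line under RA than in the wild type, where 8.84% of all genes were higher and 9.16% lower: Mlc1, a membrane protein of astrocyte endfeet (2.87 ± 0.45, adjusted p 0.000218), Fgfr3 (2.34 ± 0.61, 0.00847) and the intermediate filament Vim (1.32 ± 0.36, 0.0107). Vim was lost without wild-type replicate 1 (0.94, 0.0649). Mlc1 and Vim were lost in a fit of only the groups compared. Under FGF8 3 were higher, against 2.83% of all genes. They were Aldoc, an aldolase of astrocytes (3.52 ± 0.58, adjusted p 0.00156), Ndrg2 (2.59 ± 0.41, 0.0012) and Clu, or clusterin (2.12 ± 0.57, 0.036). Clu was lost without Nkx2.2 replicate 1 (1.60, 0.192) or 2 (2.19, 0.0812) and without wild-type replicate 2 (1.72, 0.107) or 3 (2.13, 0.101). Aldoc and Clu were both lost in a fit of only the groups compared. With only probe sets whose names carry no suffix, Aldoc was lost too, at -0.01. In Lmx1a day 14 over day 10, 2 of the 19 were higher, against 2.96% of all genes. Mlc1 rose by 3.58 ± 0.45 (adjusted p 0.000225) and Clu by 2.06 ± 0.57 (0.0425). Clu was lost there without day 10 replicate 1 (1.92, 0.096) or 3 (1.87, 0.075) and without day 14 replicate 1 (1.54, 0.188) or 2 (1.96, 0.135). The same Clu call was lost within the first bioC set and in a fit of only the groups compared. In the Olig2 line over the RA wild type, 2 of the 19 were higher, against 5.5% of all genes. They were Clu (5.10 ± 0.57, 2.81e-05) and Ndrg2 (1.90 ± 0.41, 0.00449).

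Among 12 genes of radial glia and neural progenitors, 6 were higher and 1 lower in the Nkx2.2 line under RA, against the same 8.84% and 9.16% of all genes. The 4 largest were Pax6, a dorsoventral patterning factor, which fell by 4.49 (SE 0.84, adjusted p 0.000837), the endothelin receptor Ednrb (3.80 ± 1.03, 0.0113), the progenitor membrane protein Prom1 (3.43 ± 0.50, 0.000112) and Ptprz1 (2.73 ± 0.67, 0.00588). Ednrb was lost without wild-type replicate 1 (2.96, 0.0656). In Lmx1a day 14 over day 10, 3 of these 12 were higher, against 2.96% of all genes. They were Ptprz1 (3.26 ± 0.67, adjusted p 0.00792), Prom1 (1.93 ± 0.50, 0.0296) and Dbi (1.73 ± 0.25, 0.00069). Prom1 was lost without day 10 replicate 2 (1.75, 0.0905) or 3 (1.74, 0.0617) and without day 14 replicate 1 (1.88, 0.0938), 2 (2.12, 0.05) or 3 (1.80, 0.0804). Within the first bioC set, both Ptprz1 and Prom1 were lost. Prom1 was also lost with the bioC set as a block and in a fit of only the groups compared. Under FGF8 the Nkx2.2 line had none higher (2.83% of all genes) and 1 lower (1.71%), Pax6 (log2 fold change -5.20 ± 0.84, adjusted p 0.00135).

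Markers of other cell types moved beside the members. Of 6 ependymal genes, 3 were higher in the Nkx2.2 line under RA over wild type, against 8.84% of all genes. The same 3 were higher in Lmx1a day 14 over day 10, against 2.96% of all genes. Dynlrb2, a dynein light chain, rose by 4.71 ± 0.47 (adjusted p 5.09e-06) in the Nkx2.2 line under RA over wild type and by 3.50 ± 0.47 (0.000368) in Lmx1a day 14 over day 10. Rsph1, a radial spoke protein of motile cilia, rose by 2.51 ± 0.37 (0.00012) and 2.32 ± 0.37 (0.00145). Foxj1, the master factor of motile cilia, was higher by 1.90 ± 0.59 (0.0257) and 2.10 ± 0.59 (0.0464), and its calls were lost in 3 of 6 and in 6 of 6 leave-one-out fits. Those without Nkx2.2 RA replicate 3 (1.14, 0.133) and without wild-type replicate 1 (1.46, 0.127) or 2 (1.89, 0.0635) lost the first. The second ran from 1.79 to 2.39 over the 6 fits (adjusted p 0.0611 to 0.129). The array means of the 6 ependymal genes ran from 1.53 to 1.78 in Lmx1a day 14, 0.18 to 0.42 in Lmx1a day 10, -0.10 to 0.82 and 1.34 to 2.14 in the Nkx2.2 line under FGF8 and RA, -0.32 to -0.07 in the Olig2 line, and -0.09 and -0.12 to 0.33 in the FGF8 and RA wild types. Ependyma also carries Aqp4, and its part in the results was not tested.

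Of 10 pan-neuronal genes, 3 were lower in the Nkx2.2 line under RA than in its wild type, where 9.16% of all genes were lower. They were Rbfox3 (NeuN, log2 fold change -3.43 ± 0.42, adjusted p 3.14e-05), Elavl3 (-3.06 ± 0.35, 1.82e-05) and Tubb3 (-1.33 ± 0.22, 3e-04). The array means over the list ran from -0.77 to -0.31 in the Nkx2.2 line under RA and from 0.15 to 0.49 in the RA wild type. In the Nkx2.2 line under FGF8 and in Lmx1a day 14 over day 10 none of the 10 was called. In the Olig2 line over the RA wild type, where Aldh1l1 and Slc1a2 were lower, 2 of the 10 were lower too, Rbfox3 (-1.88 ± 0.42, adjusted p 0.00636) and Elavl3 (-1.36 ± 0.35, 0.015). Of all genes, 4.85% were lower in that comparison. Elavl3 was lost there without Olig2 replicate 2 (-1.26, 0.0631) or wild-type replicate 1 (-1.30, 0.0554). Microglial genes (8) and pluripotency genes (6) had no call in the 10 comparisons, with array means from -0.09 to 0.22 and from -0.04 to 0.22. Cell cycle genes (9) had array means of -1.67 to -0.75 in Lmx1a day 14, 0.49 to 1.03 in Lmx1a day 10, -0.41 to 0.34 in the Nkx2.2 line under RA and -1.45 to 2.53 in the FGF8 wild type. Mesenchymal genes (7) ran from 0.42 to 1.78 in the Nkx2.2 line under RA and from -0.36 to 3.40 in the RA wild type, with none of the 7 called. Over the FGF8 wild type, the Nkx2.2 line had a list median of 1.62, and 1 of the 7, the matrix gene Dcn, was higher (4.22 ± 0.93, adjusted p 0.0123). Of all genes, 2.83% were higher in that comparison. Dcn was lost without Nkx2.2 replicate 1 (4.16, 0.0547) and without wild-type replicate 1 (4.11, 0.0512) or 3 (3.90, 0.0574). In Lmx1a day 14 over day 10 the median was -1.32, and 1 of the 7, the matrix gene Postn, was lower (-3.28 ± 0.72, 0.0118). Of all genes, 1.28% were lower there. In the Olig2 line over the RA wild type the median was -2.04, and 2 of the 7 were lower, against 4.85% of all genes. They were the collagen gene Col1a2 (-4.44 ± 1.22, 0.0203) and Dcn (-3.96 ± 0.93, 0.0085). Col1a2 was lost without Olig2 replicate 1 (-3.96, 0.0848) or 2 (-4.20, 0.0743) and without wild-type replicate 2 (-3.59, 0.101) or 3 (-4.14, 0.0576). The part of these cell types in the members' values was not tested. Of the Schwann cell and neural crest list (7), 3 were lower (9.16% of all genes) and none higher (8.84%) in the Nkx2.2 line under RA than in its wild type. The lower ones were Tfap2a at -5.91 ± 0.25 (adjusted p 7.25e-10), Foxd3 at -2.62 ± 0.24 (2.8e-06) and Ngfr at -2.35 ± 0.43 (0.00069). Tfap2a, a factor of neural crest, was lower in every factor line than in its wild type, at -4.37 ± 0.25 in Lmx1a day 14, -4.29 ± 0.25 in Lmx1a day 10, -4.08 ± 0.25 in the Nkx2.2 line under FGF8 and -5.88 ± 0.25 in the Olig2 line (adjusted p 3e-08, 3.66e-07, 1.86e-07 and 4.37e-10). In the Olig2 line 2 of the 7 were higher (5.5% of all genes) and 2 lower (4.85%). The higher ones were Ngfr (1.60 ± 0.43, adjusted p 0.0172) and Erbb3 (1.48 ± 0.41, 0.0213). Ngfr was lost there without Olig2 replicate 1 (1.47, 0.0683) and without wild-type replicate 1 (1.43, 0.0754) or 2 (1.53, 0.059), and Erbb3 without Olig2 replicate 1 (1.25, 0.0993) or 2 (1.23, 0.106) and without wild-type replicate 2 (1.41, 0.0724) or 3 (1.15, 0.0888). Mbp is also a gene of Schwann cells.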

How the data were processed

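RNA of 21 samples was labelled from a 2 ug input and hybridised to whole-genome Affymetrix mouse arrays, as the labels' protocols state. The deposited values are log2 signals. GCRMA, per the submitters' processing notes, made them, with no version given in the sources used here. Each probe set appears centred by the authors on its median over 27 arrays (at most 13 values above 0 and 13 below), 6 of which are not used here. Differences between arrays are kept and levels are not. The number of arrays limits the precision, and no depth applies.

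Of 45101 probe sets, 64 controls were set aside, 34945 had 1 gene symbol, 932 several and 9160 none here. Symbols were compared with current ones through Entrez IDs (34741 matched, 0 changed). Each of 18193 genes took its most variable probe set by SD. The fit used limma 3.58.1 in R 4.3.3 (lmFit with a mean per group, eBayes, 14 residual and 1.11 prior degrees of freedom), Benjamini-Hochberg adjustment, 10 comparisons, 1 interaction and an F test. It was tested on simulated data. The p-values of the main fit set differences of group means against the spread between labelled biological replicates. That spread is a variance per gene pooled over the 7 groups, not that of the groups compared alone. No test used a list, and lists are given as counts and medians.

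The members, the lists and the tests were chosen with earlier results of these data known. Named genes are the members, the 3 genes nearest to each by Pearson's r over the 21 arrays, and up to 4 called members of a list with the largest change. All tested genes of the oligodendrocyte and myelin list are named as well. Deviations from group means did not pair same-numbered samples (mean r 0.00603 over 63 pairs, -0.003371 over 126 others), so the numbers were not used as a block. Alternatives were the replicate number or the bioC set as a block, fits within a bioC set, fits of only the groups compared, robust moderation, array weights, other probe set rules, median centring, a range filter, each probe set singly, and leaving out arrays.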

Additional observations from a re-analysis of the deposited data

Results flagged for a closer look

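The effect of the Nkx2.2 line on Mbp differed between media for 3 of its 8 probe sets, by the interaction term fitted to every probe set singly. The difference of the log2 fold change under FGF8 minus that under RA was -3.32 ± 0.53 for 1456228_x_at (adjusted p 0.00364), -2.56 ± 0.42 for 1436201_x_at (0.00402) and -1.67 ± 0.28 for 1451961_a_at (0.00562). The same term was -3.20 ± 0.90 for the Mbp probe set used above and missed the threshold (0.0713 over all probe sets). Of all probe sets, 0.848% were called in that direction. For 1456228_x_at the arrays read 1.34, 0.00 and -0.03 in the Nkx2.2 line under FGF8, against -0.01, 0.03 and -0.07 in wild-type cells under FGF8. They read 3.85, 3.94 and 2.48 in the Nkx2.2 line under RA, against -0.51, -0.46 and -0.07 in the RA wild type. The RA samples of the line are from day 10 and their wild type from day 8.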

How the results depend on the processing

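Of 27 called pairs of gene and comparison, 281 alternative fits, those without single arrays not counted, left 222 calls as they were, lost 51 and turned the sign of 8. The 8 are Aldh1l1 with its flat suffix-free probe set (Nkx2.2 FGF8 over wild type 0.00, Lmx1a day 14 over day 10 -0.06 and over wild type -0.04, Olig2 over wild type 0.03, Nkx2.2 FGF8 over RA 0.02, Lmx1a day 10 over Nkx2.2 FGF8 0.03, Nkx2.2 RA over Olig2 -0.01, FGF8 over RA wild type 0.03). With the same rule Aldoc (-0.01) and Nfix (-0.03) turned in Nkx2.2 FGF8 over wild type, as did Aldoc between the wild types (0.08). These probe sets are near 0 on all arrays. The numbers of members called moved as follows; other causes were not tested. Nkx2.2 FGF8 over wild type (3): 1 with only those groups, with the bioC set as a block or without the 3 arrays set apart. Nkx2.2 RA over wild type (5): 3 with the mean of all probe sets or suffix-free probe sets. Every Mbp probe set carries a suffix, so Mbp is absent from this and every other suffix-free count. Its calls were not tested under that rule. Lmx1a day 10 over wild type (2): 1 with the replicate block, the bioC block, the mean of probe sets or without the 3 arrays, 0 with only those groups or within the first bioC set, 4 with array weights. Lmx1a day 14 over day 10 (3): 1 with only those groups, 6 with array weights. Lmx1a day 14 over wild type (2): 1 with suffix-free probe sets. Olig2 over wild type (2): 1 with only those groups, the mean of probe sets or suffix-free probe sets, 4 with each probe set singly. Nkx2.2 FGF8 over RA (2): 1 with the replicate block, robust moderation, the bioC block, within the second bioC set or each probe set singly, 0 with only those groups or suffix-free probe sets. Lmx1a day 10 over Nkx2.2 FGF8 (3): 1 with only those groups or the bioC block, 6 with array weights. Nkx2.2 RA over Olig2 (3): 5 with only those groups, array weights, genes with a range of 1 or more or without the 3 arrays, 1 with suffix-free probe sets. FGF8 over RA wild type (2): 0 with only those groups, 1 with suffix-free probe sets, the bioC block or without the 3 arrays. The interaction (0): 1 with only those groups, the mean of probe sets, genes with a range of 1 or more or each probe set singly, 2 with array weights or without the 3 arrays. Without single arrays the counts ran from 1 to 3, 3 to 6, 0 to 2, 1 to 3, 2 to 2, 2 to 2, 1 to 2, 2 to 4, 2 to 3, 1 to 2 and 0 to 2 in that order, and the F test called 7 each time. The array weights stopped before their tolerance was reached. The replicate block moved no other member count beyond 1.5 times, and by the mean r given above the numbers did not pair the samples. The number is not independent of the bioC set, as replicate 3 is the array in the second set in each mixed group. A probe set near 0 on all arrays limits what can be said of its gene.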

Other observations

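The NFI factors, which act in the switch to astroglia, were lower in the FGF8 wild type than in the RA wild type. Nfib averaged -3.63 in the FGF8 wild type and 1.14 in the RA wild type (log2 fold change -4.77 ± 0.40, adjusted p 3.21e-06), and Nfix -3.91 in the FGF8 and 0.59 in the RA wild type (-4.50 ± 0.53, 0.00011), both called without any single array. The Nfix call was lost with suffix-free probe sets. Nfia averaged -3.11 in the FGF8 and -0.02 in the RA wild type (-3.09 ± 0.80, 0.0206), and its call was lost without FGF8 replicate 3 (-2.85, 0.0785) or RA replicate 2 (-3.08, 0.0632) or 3 (-2.74, 0.0651). The Nfia call was also lost with the mean of all probe sets and without the 3 arrays set apart. Aldoc averaged -2.85 in the FGF8 wild type and 0.10 in the RA wild type (-2.96 ± 0.58, 0.00404). The Aldoc call was lost with only those groups and with suffix-free probe sets, where the value was 0.08. The 2 wild types differ in medium and in day. They also differ in bioC set, as 2 of the 3 FGF8 arrays and none of the RA arrays lie in the first.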
